A study of Mus musculus with 7 samples.

Results

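Zfp42 (Rex1), Esrrb, Tcfcp2l1, Klf2, Klf4, Klf5, Tbx3 and Prdm14 are transcription factors of the naive state of mouse embryonic stem cells, the state that corresponds to the epiblast before implantation. All 8 were found by symbol in a table of 12071 gene symbols, and for each the transcript with the highest mean was used. They were followed in CCE, an established line of mouse embryonic stem cells kept on gelatin without feeders, as it differentiated in retinoic acid. The day 0 library came from cells in serum medium with leukemia inhibitory factor (LIF) that received the vehicle DMSO. The libraries of days 1 to 6 came from cells without LIF that had been given retinoic acid at 5 µM for that many days. There was 1 library per day, 7 in all, from 1 line, and no later library without retinoic acid was analysed here. LIF withdrawal, retinoic acid and time therefore cannot be told apart, and no day has a replicate.

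Naive stem cells hold their state through a network of such factors that sit on each other's regulatory regions together with Oct4, Sox2 and Nanog. Signals enter it at separate points. LIF acts through the kinase JAK and the factor STAT3 on Klf4 and Tcfcp2l1, and inhibition of the kinase GSK3, by relief from the repressor Tcf7l1, acts on Esrrb, Tcfcp2l1 and Klf2. Prdm14 represses FGF signalling and DNA methyltransferase genes. When cells leave the naive state the network is taken down, and several of its members are used again elsewhere: Klf4 and Klf5 in epithelia and in extraembryonic cells, Tbx3 in endoderm and limb, and Prdm14 in germ cells.

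The values are log2 read counts scaled by 1 factor per library and not divided by transcript length. Raised from the log they gave whole reads, from 7194325 on day 6 to 17923852 on day 4 in total. Intervals beside differences are exact binomial (Clopper-Pearson) 95% intervals of these reads and cover counting error only, since culture-to-culture spread was not measured. The day 6 library stood apart. The root mean square log2 step between neighbouring days over all genes was 2.24 from day 5 to day 6 and from 0.33 to 0.88 for the earlier steps. The median over genes of the log2 step from day 5 to day 6 was −1.06, and −0.10 after a correction for transcript length. Slopes are therefore given over days 0 to 5, with day 6 apart. All 5 stem cell markers of a fixed list (Pou5f1, Sox2, Nanog, Sall4, Utf1) were in the table and fell. Their summed log2 level was 15.46 on day 0 and 9.83 on day 5. Of 10 extraembryonic endoderm markers 9 were in the table, and 7 rose, with a summed log2 level of 12.94 on day 0, 17.92 on day 3 and 17.10 on day 5. In bulk RNA, fewer cells holding a transcript and less of it per cell cannot be told apart.

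RefSeq promoters (build GRCm38.p6) were matched by gene number for 5 of the 8 factors. The 250 bases before the transcript start are shown for 3 that ended lowest among those matched and for Klf4, which did not stay low, so that the courses can be read beside the sequence. For Esrrb the promoter shown is that of the longer transcript, not of the transcript whose course is given. Capitals mark matches, on either strand, to the motifs searched in the window of 250 bases before and 50 after the start.
Zfp42 promoter, chr8:43307010-43307259, minus strand: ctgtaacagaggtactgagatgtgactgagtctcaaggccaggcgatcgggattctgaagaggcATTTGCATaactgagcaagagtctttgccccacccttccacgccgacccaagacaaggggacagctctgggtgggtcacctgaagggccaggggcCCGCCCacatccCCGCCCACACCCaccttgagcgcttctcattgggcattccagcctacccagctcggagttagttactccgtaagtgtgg
Esrrb promoter of the longer transcript, chr12:86360867-86361116, plus strand: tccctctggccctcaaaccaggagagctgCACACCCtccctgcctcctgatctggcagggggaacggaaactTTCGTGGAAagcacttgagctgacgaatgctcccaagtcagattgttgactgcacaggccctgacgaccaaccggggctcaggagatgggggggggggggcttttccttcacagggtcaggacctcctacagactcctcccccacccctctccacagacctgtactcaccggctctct
Klf2 promoter, chr8:72318812-72319061, plus strand: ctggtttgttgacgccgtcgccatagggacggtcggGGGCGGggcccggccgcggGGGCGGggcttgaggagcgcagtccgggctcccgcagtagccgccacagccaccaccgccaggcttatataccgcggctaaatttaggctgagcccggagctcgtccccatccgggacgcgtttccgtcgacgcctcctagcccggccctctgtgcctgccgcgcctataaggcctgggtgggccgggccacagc
Klf4 promoter, chr4:55532476-55532725, minus strand: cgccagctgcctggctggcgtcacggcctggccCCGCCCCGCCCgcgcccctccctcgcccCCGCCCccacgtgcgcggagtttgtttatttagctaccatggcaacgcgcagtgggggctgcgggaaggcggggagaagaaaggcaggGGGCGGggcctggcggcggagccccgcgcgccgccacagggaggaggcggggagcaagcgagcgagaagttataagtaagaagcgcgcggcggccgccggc

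The Zfp42 window holds 1 octamer, the POU-factor motif ATGCAAAT in reverse, 186 bases before the start, which 1.74% of 32851 promoters of this length hold. It also holds 1 CACC element (GGGTGTG, the core bound by Klf factors, in 7.95% of promoters) and 2 GC boxes (GGGCGG, in 35.7%), 1 of which overlaps the CACC element by 1 base. The Esrrb window has a CACC element and a STAT palindrome (TTCNNNGAA, in 8.30% of promoters) beginning 178 bases before the start. Of the motifs searched, Klf2 and Klf4 have only GC boxes, 2 and 4, in windows with 32 and 40 CpG pairs, against a median of 7 over all promoters. The second Esrrb promoter lies 60527 bases downstream, at the start of the transcript whose values are given, and held no match. That of Tcfcp2l1 held none either. The other motifs searched on both strands were CATTGTT (Sox), TCAAGGTCA (estrogen-related receptors), GGTGTGA (T-box, which can overlap the CACC element), a direct repeat of AGGTCA spaced by 5 bases (retinoic acid receptors), GCCATNTT (Yy1), GGTCTCTAA (Prdm14) and CTTTGAT (Tcf), with none in the 6 windows; they occur in 3.78%, 0.423%, 3.98%, 0.00913%, 6.05%, 0.256% and 3.73% of promoters. A match is a description of letters and not a binding site.

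The 8 factors took 3 kinds of course. Zfp42, Esrrb, Klf2 and Prdm14 stood at least 17.8-fold below day 0 on day 5. Klf4, Tcfcp2l1 and Klf5 lost 3.00-fold to 7.29-fold by day 5, and the values of Klf4 and Tcfcp2l1 had been lower on days 2 and 3. Tbx3 stood above day 0 on days 1 and 2 and was near it on day 5. On day 1, 4 of the 8 were at least 4-fold lower than on day 0, while 1.11% of all genes were, and none was 4-fold higher, while 2.22% of all genes were. At least 2-fold lower were 7, against 4.02% of all genes. The count at least 4-fold lower was 6 on day 2 (2.58% of all genes), 5 on both day 3 (3.94%) and day 4 (4.57%), and 6 on day 5 (4.66%). Among the 8, the median difference from day 0 was −2.03, −3.56 and −3.51 on days 1, 2 and 5, where the medians over all genes were 0.11, 0.13 and 0.13.

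**Figure D1:**
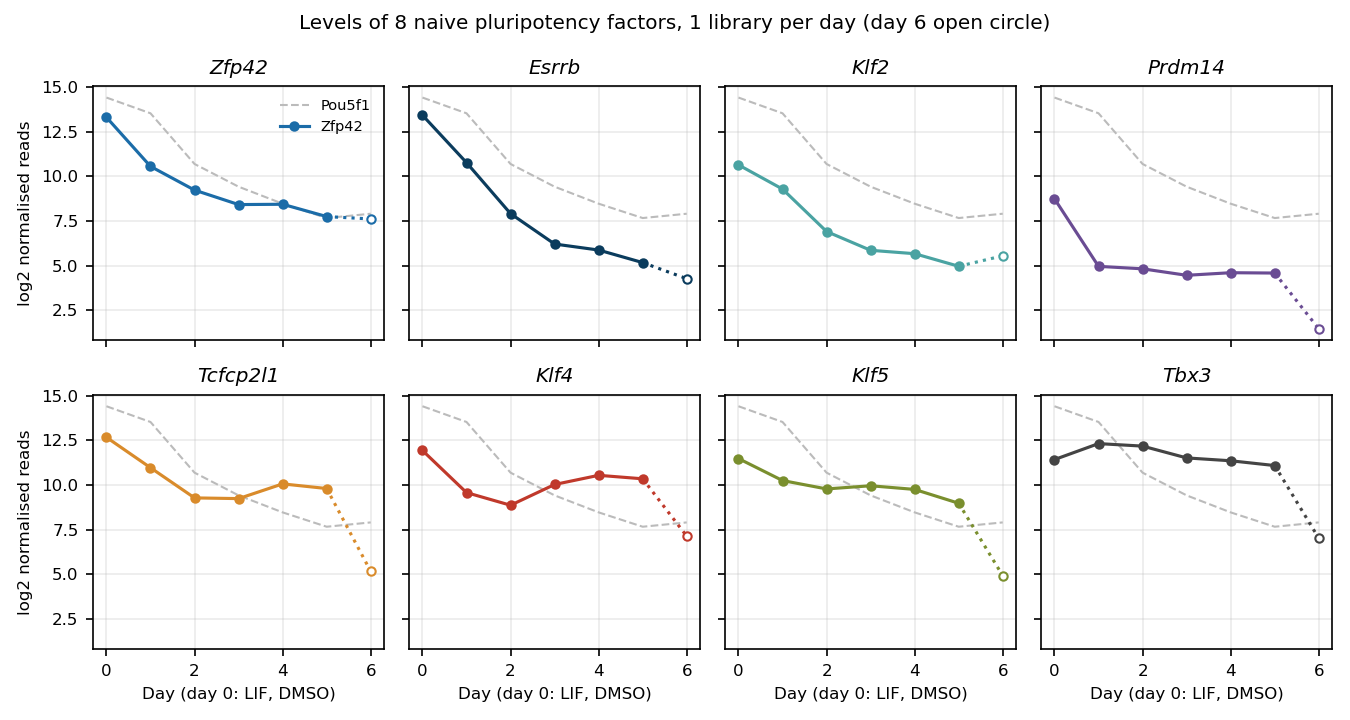
Log2 normalised reads (vertical) by day (horizontal) for each of the 8 factors, with Pou5f1 as a dashed grey line; each point is 1 library and the day 6 library is an open circle. Zfp42, Esrrb, Klf2 and Prdm14 end between 4.58 and 7.74 on day 5, and Tbx3 ends at 11.08.

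Esrrb, an orphan nuclear receptor that binds as a monomer beside Oct4 sites, showed the largest loss of the 8 by day 5. Its transcript (NM_011934, chromosome 12, 87762593 to 87862577 in mm9, plus strand) stood at 13.42, 10.76, 7.90, 6.20, 5.87, 5.16 and 4.26 from day 0 through day 6. Each day was lower than the one before, and the reads went from 5687 to 30 by day 5. It was 6.30-fold lower on day 1 (log2 −2.66, interval −2.75 to −2.56) and lost a further 7.24-fold on day 2 (log2 −2.86, interval −3.12 to −2.60). The step of day 3 was −1.70, and that of day 4 was −0.34 with an interval of −0.97 to 0.31, which includes no change. On day 5 it was 305-fold below day 0 (log2 −8.25, interval −8.82 to −7.74). Over days 0 to 5 Esrrb fell by 1.65 ± 0.21 log2 units per day (SE, limma adjusted p = 0.00307), the 12th steepest fall among 12071 genes. Its other listed transcript, NM_001159500, starts 60527 bases upstream and differed from it by at most 0.047 through day 5. Values this close do not separate the 2 starts.

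Klf2, a Krüppel-like factor with 3 zinc fingers that is sustained by low ERK signalling, had its largest step on day 2, as Esrrb did, from a lower level. It stood at 10.63, 9.28, 6.90, 5.85, 5.66, 4.96 and 5.54 from day 0 through day 6 (NM_008452, chromosome 8, 74842960 to 74845553, plus strand). That step was a 5.19-fold drop (log2 −2.38, interval −2.77 to −2.0), after one of 2.56-fold on day 1 (log2 −1.35, interval −1.54 to −1.17). With 46 reads on day 4 and 26 on day 5, the last step of −0.70 had an interval of −1.46 to 0.019. Klf2 fell by 1.15 ± 0.15 per day (limma adjusted p = 0.00307) and was 51.1-fold below day 0 on day 5 (log2 interval −6.30 to −5.11). The courses of Klf2 and Esrrb were the most alike of all pairs among the 8 over days 0 to 5 (Pearson r 0.997 across 6 libraries, a description of libraries that both genes share).

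Zfp42, a zinc finger protein descended from Yy1 that is a readout of the naive state and is not needed to maintain it, lost most of its level on the first day. Its level was 13.30, 10.55, 9.22, 8.41, 8.43, 7.74 and 7.61 from day 0 through day 6 (NM_009556, chromosome 8, 44380420 to 44392363, minus strand). Day 1 held 14.9% of the day 0 level, day 2 5.93% and day 5 2.13%. The daily steps shrank in order from −2.75 (interval −2.85 to −2.65) through −1.33 and −0.81 to 0.017 on day 4, where the interval of −0.26 to 0.29 includes no change, and then came a further −0.69 (interval −0.96 to −0.42) on day 5. Zfp42 fell by 1.00 ± 0.18 per day (limma adjusted p = 0.00619), and 179 reads remained on day 5 of 5241 on day 0.

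Prdm14, a PR-domain zinc finger repressor, had the lowest level per length on day 0 and the largest single step of the 8 through day 5. It stood at 8.74 on day 0 with 222 reads, then at 4.95, 4.82, 4.45, 4.60 and 4.58 on days 1 to 5, with 11 to 22 reads each (NM_001081209, chromosome 1, 13103508 to 13117244, minus strand). Day 0 was high, and days 1 to 5 lay within 0.50 of each other. The day 1 step was 13.8-fold (log2 −3.78, interval −4.56 to −3.09), and the intervals of all 4 later steps through day 5 include no change. Such a course is not a straight line, and its slope of −0.63 ± 0.26 missed the threshold (limma adjusted p = 0.0807), while a joint F-test of day and its square called it (adjusted p = 0.0197). On day 6 it was at 1 read, the lowest value of that library, which may stand for none (155-fold below day 0, log2 interval −12.59 to −4.79).

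**Figure D2:**
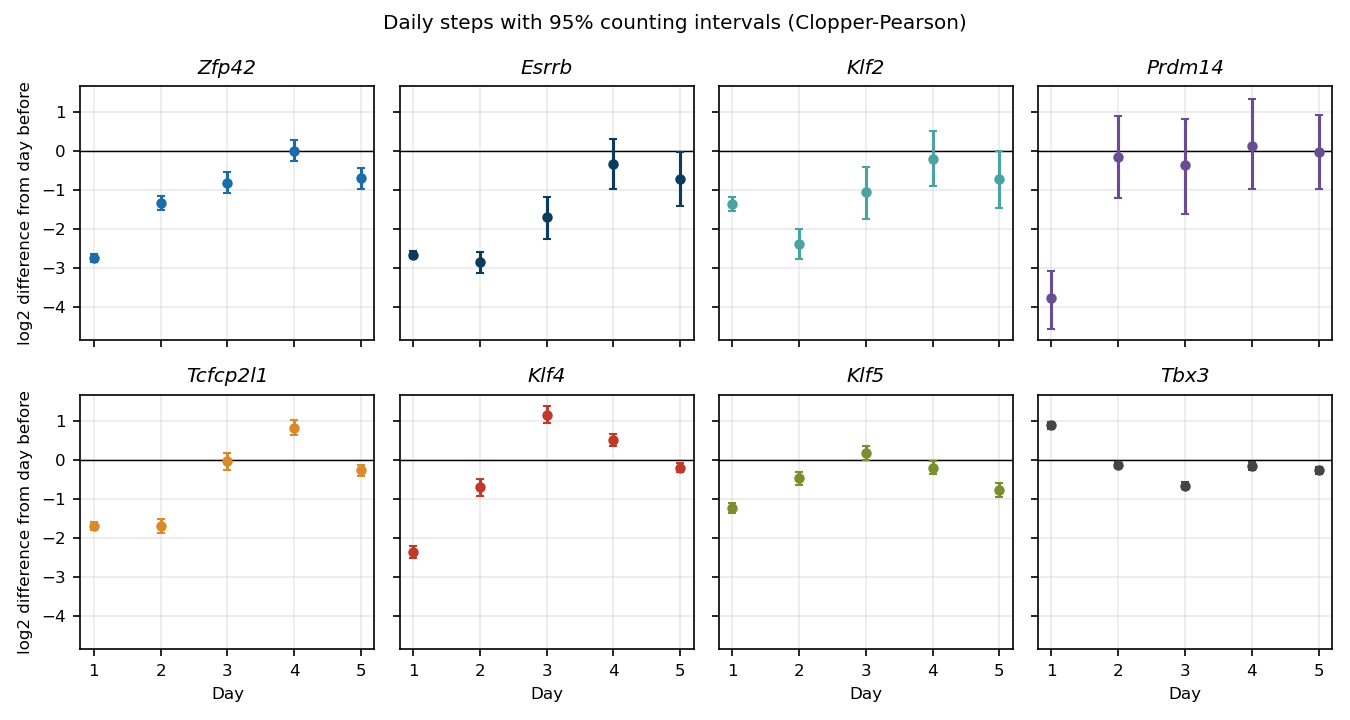
Log2 difference from the day before (vertical) for days 1 to 5 (horizontal) for each factor; points are differences between 2 libraries and bars are 95% counting intervals. Prdm14 has 1 step of −3.78 and then steps around 0, Esrrb and Klf2 have their largest step on day 2, and Klf4 has a step of 1.16 on day 3.

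Klf4, the Krüppel-like factor downstream of STAT3 that is also used to reprogram somatic cells, dropped early and then came back in part. It stood at 11.93, 9.57, 8.86, 10.02, 10.54, 10.34 and 7.13 from day 0 through day 6 (NM_010637, chromosome 4, 55540008 to 55545347, minus strand). The low was on day 2, at 11.9% of day 0, and days 3 to 5 lay at 26.7%, 38.1% and 33.3%. The drop of day 1 was 5.13-fold (log2 −2.36, interval −2.51 to −2.21), and the step up on day 3 was 2.24-fold (log2 1.16, interval 0.94 to 1.38). Day 5 was 2.79-fold above the low (log2 1.48, interval 1.28 to 1.68), and from 1.41 to 1.55 on the log2 scale over the settings tried. A drop of at least 4-fold followed by a return of at least 2-fold by day 5 was found in 1 of the 8, Klf4, and in 0.969% of all genes. This criterion was not planned beforehand, and most genes had no such drop to return from. Of the 710 genes with a drop of at least 4-fold, 117 also returned, beside 1 of the 7 factors with such a drop. Neither the straight line (slope −0.11 ± 0.21, limma adjusted p = 0.684) nor the F-test of day and day squared (adjusted p = 0.115) called Klf4. Without day 0 its slope was 0.32, upward (limma adjusted p = 0.0928).

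Tcfcp2l1, a CP2-family factor and another STAT3 target, had 2 nearly equal steps down and a smaller return. Its level was 12.66, 10.96, 9.27, 9.23, 10.06, 9.80 and 5.16 from day 0 through day 6 (NM_023755, chromosome 1, 120524521 to 120581745, plus strand). The steps were −1.70 (interval −1.80 to −1.61) and −1.69 (interval −1.87 to −1.52), no detectable step on day 3 (−0.039, interval −0.27 to 0.19), and 0.82 upward on day 4 (interval 0.64 to 1.02). Day 5 was 1.48-fold above the day 3 low (log2 interval 0.37 to 0.76) and 7.29-fold below day 0. The F-test called this course (limma adjusted p = 0.00585), and the slope of −0.49 ± 0.20 missed the threshold (adjusted p = 0.0791; 0.0337 without day 2).

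Klf5, a Krüppel-like factor shared by naive cells and the trophectoderm, had the smallest difference on day 1 among the 7 that stood lower. Its values were 11.47, 10.24, 9.77, 9.95, 9.75, 8.97 and 4.92 from day 0 through day 6 (NM_009769, chromosome 14, 99697909 to 99712628, plus strand). It was 2.35-fold lower on day 1 (log2 −1.23, interval −1.36 to −1.10), lay between 30.2% and 34.8% of day 0 on days 2 to 4, and was at 17.6% on day 5. Klf5 fell by 0.40 ± 0.082 per day (limma adjusted p = 0.00985). That call was lost without day 0 (adjusted p = 0.0503) and with day 6 added (adjusted p = 0.0589).

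Tbx3, a T-box factor reached by PI3K and LIF signals and also used in endoderm, did not follow the others. It stood at 11.42, 12.31, 12.17, 11.51, 11.35, 11.08 and 7.01 from day 0 through day 6 (NM_198052, chromosome 5, 120120677 to 120134610, plus strand). Days 1 and 2 were the highest, 1.86-fold (log2 0.89, interval 0.80 to 0.99) and 1.69-fold above day 0, and day 5 was 1.26-fold below it (log2 −0.34, interval −0.44 to −0.23). With a correction for transcript length the day 1 difference was 0.66. The slope was −0.15 ± 0.087 (limma adjusted p = 0.194), and Tbx3 was called as falling without day 0 (−0.33 per day, adjusted p = 0.0135) and after the length correction (−0.23, adjusted p = 0.0405). Its transcripts NM_011535 and NM_198052 cover the same span and differed by at most 0.021 on each day.

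Markers of cell types that also use these factors are given here beside their courses. Gata6 was at 6.80, 10.90 and 12.20 on days 0, 1 and 3, and Gata4 at 7.09, 8.61 and 12.51. Of 6 epithelial markers 4 were in the table, and Krt8, Krt18 and Krt19 rose while Epcam fell; their summed level was 10.18, 10.20, 14.42 and 13.65 on days 0, 1, 3 and 5. Of 6 trophoblast markers 2 were in the table, Hand1 and Gata3, and 1 of these 2 was called as rising. Their summed level was 6.80 on day 0 and 10.01 on day 5. Of 5 germ cell markers 4 were in the table, with a summed level of 9.47 and 8.74 on the same days. Stra8, Dazl, Ddx4 and Prdm1 were the germ cell markers in the table, and their summed level was highest on day 1, at 12.87, when Stra8, a gene that retinoic acid induces, stood at 12.70 after 6.07 on day 0. No marker in the table can be read as 0, because every entry has at least 1 read, and Cdx2, Eomes, Elf5, Krt7, Krt5, Krt14, Nanos3 and Afp are not in the table used. Of the 5 fibroblast and smooth muscle markers 4 rose, and of 4 neural progenitor markers 2. Their part in the courses of Klf4, Klf5, Tbx3 and Prdm14 was not tested.

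By the straight line, 4 of the 8 factors fell over days 0 to 5 and none rose, where 22.1% of all 12071 genes fell and 25.9% rose. These are 2662 and 3132 genes; with each library centred on its median they were 3567 and 2554, and the same 4 factors fell. The 4 were Esrrb, Klf2, Zfp42 and Klf5. The slopes of all 8 were negative, as were those of 5763 of all 12071 genes. The median slope of the 8 was −0.56 against 0.013 over all genes. The F-test of day and day squared called 6 of the 8 and 48.0% of all genes; the 2 not called were Klf4 and Tbx3. The squared term alone was called in none of the 8 by limma and in 0.0166% of all genes. At an unadjusted limma p under 0.05 stood 6 of the 8 and 2378 of all 12071 genes. With day 6 in the fit 3 of the 8 fell, Esrrb, Klf2 and Zfp42, and 5.20% of all genes did, and the F-test called 5 of the 8 and 40.1% of all genes.

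**Figure D3:**
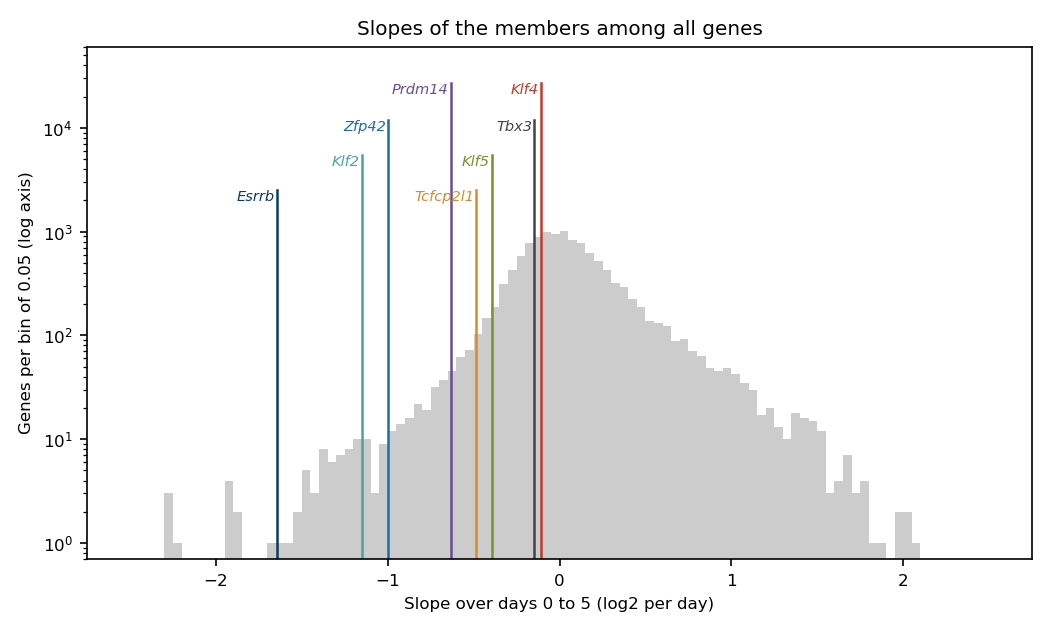
Number of genes (vertical, log axis) by slope over days 0 to 5 in log2 units per day (horizontal), in bins of 0.05, with lines at the 8 factors. All 8 lie at or left of −0.11, and Esrrb at −1.65 is in the far left tail.

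The order of loss was read from the day at which the log2 value lay midway between day 0 and the lowest of days 1 to 5. This midpoint is relative to each gene's own loss, so a gene that loses more can pass it later. Prdm14 came first at 0.57 days (counting interval 0.47 to 0.69), with Klf4 at 0.65 (0.61 to 0.69). Tcfcp2l1 followed at 1.01 (0.95 to 1.07), Zfp42 at 1.02 (0.97 to 1.10) and Klf5 at 1.04 (0.92 to 1.33). Esrrb at 1.51 (1.46 to 1.58) and Klf2 at 1.62 (1.51 to 1.76) were last. Within each of these 3 sets the intervals overlap, so Prdm14 and Klf4, or Esrrb and Klf2, have no order beyond counting error. The intervals of neighbouring sets do not overlap. All these intervals hold the lowest value fixed and leave out its counting error, so they are too narrow, above all for Prdm14, whose low rests on 11 reads. Under 4 other settings (median-centring, quantile scaling, 5 reads added, length correction) Klf5 moved most, from 0.96 to 1.18 days. A midpoint under 1 says only that it was passed before the day 1 harvest, because the line between days was assumed straight. Tbx3 has no midpoint, since its lowest value through day 5 was within 2-fold of day 0. The midpoints do not give the order of the fold loss on day 1. Esrrb was then 6.30-fold below day 0, more than Klf4 (5.13-fold), Tcfcp2l1 (3.25-fold) and Klf5 (2.35-fold), whose midpoints came earlier. It had lost less than Zfp42 (6.72-fold) and Prdm14 (13.8-fold).

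**Figure D4:**
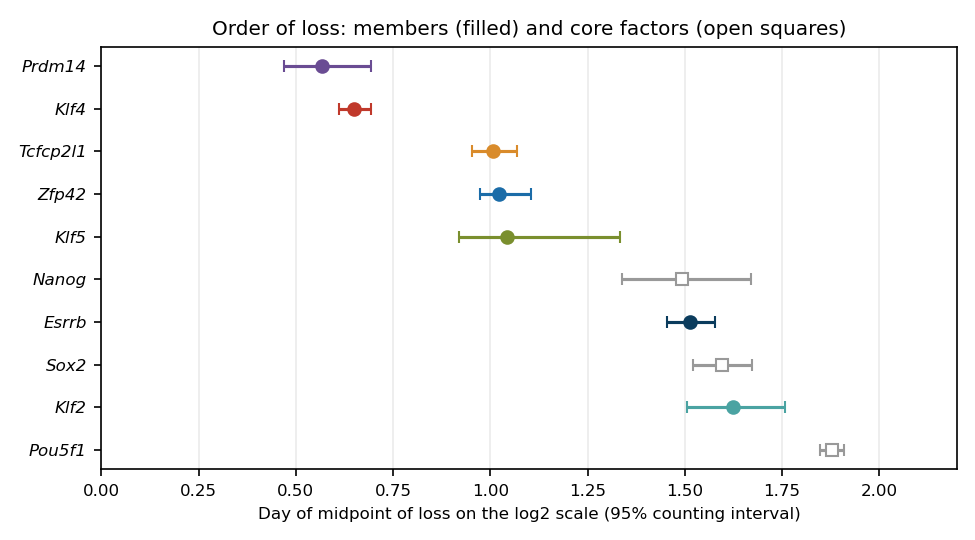
Day of the midpoint of loss (horizontal, days) for the 7 factors that lost at least 2-fold (filled circles) and for Pou5f1, Sox2 and Nanog (open squares), with 95% counting intervals. Prdm14 and Klf4 lie left of day 1, Tcfcp2l1, Zfp42 and Klf5 around it, and Esrrb and Klf2 at 1.51 and 1.62, while Pou5f1 lies at 1.88. The intervals hold each gene's lowest value fixed.

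Of the onsets, 7 of the 8 were at least 2-fold below day 0 from day 1 on without return through day 5, and only Zfp42, Esrrb and Prdm14 were at least 4-fold below from day 1 on. Tcfcp2l1 and Klf2 joined them from day 2, and Klf5 on day 5. How many of all genes stayed low in this way was not computed, so these counts have no background. Through day 5, Klf4 was at least 4-fold below on days 1 and 2 only. At some time through day 5, 7 of the 8 were at least 4-fold below day 0, against 5.88% of all genes. Day by day, the number at least 2-fold lower than the day before was 7 on day 1, 4 on day 2 (4.51% of all genes), 2 on day 3 (4.31%), and 0 on both day 4 (1.27%) and day 5 (0.464%). Those of day 2 were Esrrb, Klf2, Tcfcp2l1 and Zfp42, and the 2 of day 3 Esrrb and Klf2. Klf4 alone was at least 2-fold higher than the day before on day 3, as were 4.29% of all genes. Of the whole loss to its lowest value, Prdm14 had 88.3% on the log2 scale by day 1, Klf4 76.9%, Tcfcp2l1, Zfp42 and Klf5 from 49.2% to 49.6%, Esrrb 32.2% and Klf2 23.9%.

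Levels between genes were compared per kilobase of transcript. On day 0 the order of log2 levels per kilobase was Zfp42 (12.45), Esrrb (11.34), Klf5 (10.68), Klf4 (10.32), Klf2 (9.77), Tcfcp2l1 (9.45), Tbx3 (9.09) and Prdm14 (7.36), and Pou5f1 stood at 13.97. On day 5 it was Tbx3 (8.75), Klf4 (8.73), Klf5 (8.18), Zfp42 (6.89), Tcfcp2l1 (6.58), Klf2 (4.10), Prdm14 (3.20) and Esrrb (3.09). Tbx3 had the highest level per kilobase of the 8 from day 1 to day 5, and Esrrb went from second to last.

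The core factors Pou5f1 (Oct4), Sox2 and Nanog gave a yardstick. Pou5f1 stood at 14.40, 13.52, 10.68, 9.41, 8.46 and 7.66 on days 0 to 5, a loss of 1.84-fold on day 1 and a further 7.15-fold on day 2. Of the 8, 7 had lost more than Pou5f1 on day 1, from 2.35-fold in Klf5 to 13.8-fold in Prdm14. Nanog, at 11.46, 8.73 and 7.10 on days 0 to 2, was 6.66-fold lower on day 1, beside 6.72-fold for Zfp42 and 6.30-fold for Esrrb. Sox2 was 2.34-fold lower on day 1. The midpoints were 1.49 days for Nanog, 1.59 for Sox2 and 1.88 for Pou5f1.

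Within each library the difference of a factor from Pou5f1 is free of the scaling factor. For Tbx3 it went from −2.98 on day 0 to 3.42 on day 5, for Klf4 from −2.48 to 2.68, for Tcfcp2l1 from −1.74 to 2.14 and for Klf5 from −2.93 to 1.31. The slopes of these 4 lay above that of Pou5f1 over days 0 to 5, by 1.28 (Tbx3), 1.32 (Klf4), 0.95 (Tcfcp2l1) and 1.04 (Klf5) log2 units per day. The exact permutation of the 6 days, two-sided and adjusted over the 8 factors, gave adjusted p = 0.0222 for Tbx3, 0.0333 for Klf4 and 0.0296 for each of the others. For Tbx3 the unadjusted exact p of 0.00278 is the smallest that 720 orders can give. Pou5f1 itself had a slope of −1.43 per day, the 21st steepest fall among 12071 genes, where the median slope was 0.013. A gene can thus lie above Pou5f1 without any rise of its own. The share of all genes that would pass this test was not computed. Klf2 (0.28 per day, exact permutation adjusted p = 0.0533), Prdm14 (0.80, 0.0778), Zfp42 (0.43, 0.0921) and Esrrb (−0.21, 0.308) missed the threshold, which does not show that they kept pace with Pou5f1. Without day 2, 3, 4 or 5 none of the 8 passed, and with day 6 added only Klf2 did (0.30 per day, exact permutation adjusted p = 0.0444). Without day 0 all but Esrrb passed, and without day 1 Tbx3, Klf4, Tcfcp2l1 and Klf5 did. Leaving out a day leaves fewer orders, so the smallest p that can be reached is then higher, by the same amount whichever day is left out.

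**Figure D5:**
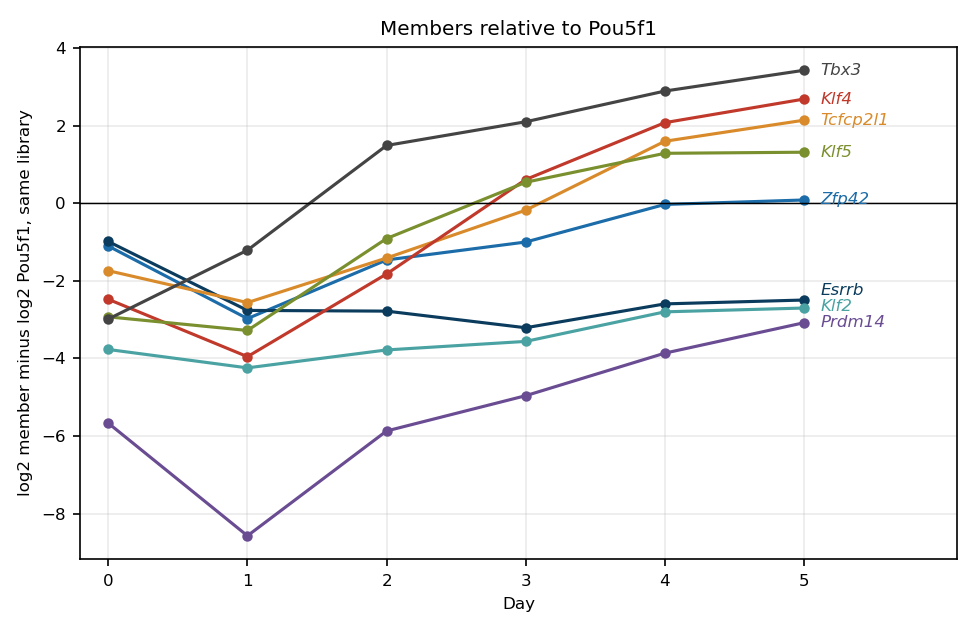
Log2 value of each factor minus that of Pou5f1 in the same library (vertical) by day (horizontal), 1 point per library. All factors except Tbx3 lie lower on day 1 than on day 0. On day 5 Tbx3, Klf4, Tcfcp2l1 and Klf5 lie between 1.31 and 3.42, Zfp42 at 0.083, and the other three below 0.

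On day 6 all 8 were at least 4-fold below day 0, as were 27.1% of all genes. The log2 difference from day 5 was −4.64 for Tcfcp2l1, −4.07 for Tbx3, −4.06 for Klf5, −3.21 for Klf4, −3.12 for Prdm14 and 0.59 for Klf2. After the length correction the differences were −1.82 for Tcfcp2l1, −1.79 for Tbx3, −4.38 for Klf5, −2.04 for Klf4, −2.34 for Prdm14 and 1.08 for Esrrb. Of the 5 with differences below −3, only Klf5, with a transcript of 1729 nt, stayed below −4. With 11 reads its uncorrected day 6 step had an interval of −5.07 to −3.20. Esrrb was uncorrected at −0.90 (interval −2.33 to 0.32), on 7 reads.

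Genes of the surrounding network were taken from fixed lists, whose counts can be read against the 22.1% of all genes that fell and the 25.9% that rose. Among 14 other pluripotency factors in the table (17 listed), 10 fell and 0 rose over days 0 to 5, with a median slope of −0.79 against 0.013 over all genes. Nr0b1 (Dax1), an orphan receptor that binds Oct4, fell by 1.54 per day, from 11.50 to 3.43 on day 5. Nr5a2, which can replace Oct4 in reprogramming, stood at 9.93, 6.69 and 7.30 on days 0, 1 and 5 and was not called (adjusted p = 0.260). Of 26 naive state markers that are no such factors, 20 fell and 0 rose (median slope −0.85). The growth factor gene Fgf4 fell by 2.30 per day, from 1707 reads to 1, and the chromatin protein gene Utf1 fell by 2.25, from 13.46 to 2.84.

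Of 13 LIF and STAT3 genes, the input to Klf4 and Tcfcp2l1, 4 fell and 4 rose (median slope 0.11), shares near those of all genes. Gfpt2 (−0.79 per day) and Pim1 (−0.64) fell, and Lif itself (0.52) and the kinase gene Jak2 (0.51) rose. Stat3 was at 11.40, 9.69, 10.61 and 11.34 on days 0, 1, 2 and 5, and its feedback inhibitor Socs3 at 10.94, 7.68, 7.87 and 9.80. The receptor gene Lifr stood at 11.71, 9.74, 11.56 and 12.95 on the same days. None of these 3 was called by its slope (limma adjusted p = 0.382, 0.957 and 0.0716), and each, like Klf4, was lower on day 1 than on days 0 and 5. They were picked from the 13 after their values were seen. Over the 13 the median log2 difference of day 1 from day 0 was −0.53. Pim1 (1.35) and Jak2 (1.13) stood higher on day 1 than on day 0. A link between these genes and the course of Klf4 was not tested.

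Of 16 Wnt, β-catenin and Tcf7l1 genes in the table (17 listed), 3 fell and 4 rose (median slope 0.045), again near the shares of all genes. The receptor genes Fzd5 (−0.73 per day, 12.16 to 7.92 on day 5) and Fzd7 (0.43, 9.65 to 12.23) moved in opposite directions. Tcf7l1, the repressor of Esrrb and Klf2, was at 11.23, 11.54, 12.15 and 11.58 on days 0, 1, 2 and 5 (slope adjusted p = 0.581). Of 16 FGF and ERK genes 8 fell and 0 rose (median slope −0.23), among them Fgf4, the feedback inhibitor gene Spry4 (−1.90, 12.08 to 3.72) and the ETS factor genes Etv4 (−1.45) and Etv5 (−1.14). The receptor gene Fgfr2, at 7.45 on day 0 and 11.66 on day 2, was not called (adjusted p = 0.0660).

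Of 16 formative and primed epiblast genes in the table (18 listed), 3 fell and 3 rose (median slope −0.32). The primed-state factor gene Otx2 was at 7.32, 3.78 and 2.84 on days 0, 1 and 5 and stood below day 0 on both later days (slope adjusted p = 0.0580). Pou3f1 (Oct6) was at 8.15, 9.38, 4.40 and 0.99 on days 0 to 3, Sox3 at 7.74, 9.66, 8.23 and 6.08, and Zic2 at 7.59, 9.75, 8.04 and 6.93. Each of these 3 had its highest value on day 1 and stood lower on day 3 than on day 0. They were picked from the 16 after their values were seen. The day 3 value of Pou3f1 is 1 read, and days 4 and 5 had 16 and 24 reads. On day 1, 4 of the 16 were at least 4-fold higher than on day 0 and 2 at least 4-fold lower, against 2.22% and 1.11% of all genes. Foxa2 (1.11 per day, 3.75 to 9.90 on day 5), a factor of endoderm as well, and Cdh2 (1.06) rose.

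Of 16 further Klf and Sp genes in the table (22 listed), 3 fell and 1 rose, with a median slope of −0.0092. Klf10 fell by 0.36 per day and Klf6 rose by 0.41, from 8.79 to 10.62 on day 5. Klf15, at 9.09 on day 0 and 6.34 on day 1, was the 1 gene of the 16 at least 4-fold lower on day 1 (slope adjusted p = 0.234). Of 6 further T-box genes in the table (15 listed), Tbx2 (1.38 per day), Tbx18 (1.18) and Tbx15 (0.52) rose, and Tbx22 and Mga fell. Tbx2, the closest paralog of Tbx3, went from 4.26 on day 0 and 5.37 on day 1 to 9.65 on day 2 and 10.73 on day 5, with its largest step on day 2, a day after the highest value of Tbx3.

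Of 10 further Prdm genes in the table (15 listed), Prdm8 (1.28 per day) and Prdm6 (0.59) rose and 2 fell, among them Prdm10, and none was 4-fold lower on day 1. Prdm1 (Blimp1), which acts with Prdm14 in germ cell founders, was at 6.75 on day 0 and 8.68 on day 2. Of the estrogen-related and estrogen receptors, Esrrg rose (0.92 per day, from 3 reads on day 0 to 7.24 on day 5), Esr2 fell, and Esrra stood at 8.04 on day 0 and 8.65 on day 5 (adjusted p = 0.311). Of 5 CP2 and grainyhead genes Tcfcp2 rose (0.31), and Grhl2 was at 8.19 on day 0 and 4.95 on day 1. Yy1 and Yy2, the relatives of Zfp42, had slopes of 0.040 and −0.035 and were not called (adjusted p = 0.372 and 0.575). Of 6 genes for Prdm14 partners and the Polycomb complex it works with, Jarid2 (−0.47), Eed (−0.33) and Ezh2 fell and Runx1t1 rose; the corepressor gene Cbfa2t2, needed for Prdm14 function, was at 11.19 on day 0 and 10.23 on day 1 (adjusted p = 0.0925).

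The genes most like each factor were taken from 1009 candidates with a mean above the 40th percentile and a range of at least 2 log2 units, by Pearson's r over the 6 libraries of days 0 to 5. For Esrrb they were Zmym1 (r 0.998), E2f4 (0.997) and Utp14a (0.996), and for Klf2 E2f4 (0.997), Znrd1 (0.997) and Elac2 (0.996). For Zfp42 they were Pnp1 (0.995), the 5-methylcytosine dioxygenase gene Tet1 (0.994) and Trim25 (0.992), for Klf5 Trim25 (0.973), Nubp2 (0.966) and L1td1 (0.964), and for Prdm14 they included 8430410A17Rik (0.982) and Sgk1 (0.977). For Tcfcp2l1 they were the kinase gene Pdk1 (0.988), BC032203 (0.984) and Triml2 (0.981). Klf4 was most like Cltb (0.972), Socs3 (0.939) and Pcolce (0.923), and Tbx3 most like H2-K1 (0.962), Nudt4 (0.960) and Slc1a5 (0.947). At r of 0.95 or more stood 131 candidates for Klf2 and 124 for Esrrb, but 2 for Tbx3 and 1 for Klf4. All genes share the same 6 libraries, and likeness of shape does not mean likeness of size. E2f4 went from 12.19 to 10.18 where Esrrb lost 8.25. The cut on the mean left out Esrrb, Klf2 and Prdm14 themselves, and Nanog as well. Genes with means as low as theirs could therefore not be listed, however alike their courses or losses.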

How the data were processed

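Per the file headers and the values, the authors deposited 1 table of log2 values per RefSeq transcript, whole read counts times 1 factor per library, not divided by length. Per the submitters' processing notes, BWA 0.7.3 and the build mm9 were used. Per the labels' protocols, strand-specific libraries were made from total RNA after removal of rRNA. The tool for counting, its strand setting and the scaling: not given in the sources used here. Reads were recovered by taking each library's lowest value as 1 read; values of up to 1000 reads lay within 0.05 of a whole number. Each listed transcript thus has at least 1 read, and a count of 1 may stand for none.

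The transcript with the highest mean stood for each of 12071 symbols, with no filter on low values. A line on day was fitted to log2 values of days 0 to 5 by limma (version 3.58.1, R 4.3.3) with a moderated, trended variance and 4 residual degrees of freedom, adjusted by Benjamini-Hochberg over all genes and called at adjusted p under 0.05. Error is spread about the line, since no day had replicates; if libraries share a culture, it may be technical. The functions were tested on simulated data. Members, gene lists, tests and the choice to leave out day 6 were fixed with earlier results of these data known. Named from each list were up to 4 genes, by slope among called genes and then by list order; for each member the 3 genes most like it; and Pou5f1, Sox2 and Nanog. Other list genes (Lifr, Stat3, Socs3, Tcf7l1, Nr5a2, Fgfr2, Otx2, Pou3f1, Sox3, Zic2, Klf15, Etv5, Prdm1, Esrra, Grhl2 and Cbfa2t2) were named after their values were seen. A few genes that the rule names are not reported here. Alternatives were other libraries, filter, scaling, pseudocount, transcript sums, length correction (loess, span 0.3) and models.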

Additional observations from a re-analysis of the deposited data

How the results depend on the processing

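No paired analysis was possible because each day had 1 library. Directions of called slopes were kept under every alternative run. With all 7 libraries limma called 628 falling and 311 rising genes, against 2662 and 3132 over days 0 to 5. Leaving out 1 library in turn gave 1521 to 2681 falling and 1756 to 3382 rising genes, 4 to 5 falling factors of the 8, none rising (0 each time), and 4 to 7 called by the F-test; the fewest falling genes came without day 4 and the fewest rising without day 0. Requiring a mean above the 40th percentile left 5 of the 8 factors, of which 2 fell and 3 were called by the F-test, and 1858 rising genes; fewer genes were tested. Median-centring called 3567 falling and 2554 rising genes, and quantile scaling 3340 and 2575. The number of factors whose slope differed from that of Pou5f1, 4 in the days 0 to 5 test, was 1 with all 7 libraries and from 0 to 7 when 1 library was left out. It was 7 without day 0, 4 without day 1 and 0 without day 2, 3, 4 or 5. The share of all genes passing this test was not computed. With 1 library left out fewer orders of the days exist, so the smallest p the permutation can give is higher, equally for each library left out. The slope differences then ranged from 1.07 to 1.51 for Tbx3, 1.14 to 1.72 for Klf4, 0.85 to 1.24 for Tcfcp2l1 and 0.91 to 1.22 for Klf5. The cause of the changed counts was not tested. The settings tried for the return of Klf4 were chosen after seeing the data. Few reads limit Prdm14 (11 to 22 on days 1 to 5, 1 on day 6), Klf2 and Esrrb on days 3 to 6.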
